A study of Mus musculus with 14 samples.

Results

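The Sonic hedgehog pathway was followed through 9 of its core genes, taken by symbol: the ligand *Shh*, the receptor and signalling genes *Ptch1*, *Smo*, *Boc*, *Gas1* and *Hhip*, and the transcription factors *Gli1*, *Gli2* and *Gli3*. Each was matched to 1 of the 23152 loci in every RNA-seq table, so all 9 were measured. The RNA-seq data are 11 poly-A libraries, with 1 library per condition, and 2 peak lists come from ChIP-seq of TAF9B and RNA polymerase II (POL2).

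The cells labelled WT were JM8 mouse ES cells, a single clone on the C57BL/6 background, and the cells labelled TAF9B -/- were the single clone Taf9b_BG10 on the same background, in which the coding part of *Taf9b*, a gene of the X chromosome, was exchanged for LacZ-Neo. Either clone was sequenced as undifferentiated ES cells, which had been kept on fibroblast feeder cells, and as embryoid bodies (EBs) at days 2, 4 and 6 of differentiation to motor neurons. All the EB cultures received retinoic acid and SAG, an agonist of the smoothened protein, so the pathway was driven by a drug in WT and KO cultures alike. The tissues were lumbar spinal column of newborn littermates, WT and *Taf9b* KO, and spinal cord of newborn WT mice. ChIP-seq was made in motor neuron EBs of HBG3, a wild type line with a motor neuron reporter, so the peaks and the RNA come from different cell lines.

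The deleted gene went against the labels in culture. In undifferentiated cells *Taf9b* measured 3.06 FPKM under the KO label and 0.537 FPKM under the WT label, and it was also higher in the KO-labelled EBs at day 2 (4.08 against 0.516 FPKM), day 4 (4.27 against 1.96 FPKM) and day 6 (4.01 against 1.37 FPKM). In spinal column it was lower in the KO-labelled library, at 3.31 against 6.65 FPKM, so there too the gene measured above 1 FPKM under the KO label. Libraries are therefore named by their label throughout, and every direction between WT and KO in culture is a direction between labels.

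FPKM counts the fragments of a gene relative to transcript length and to all mapped fragments, and the read depth behind each value is unknown. A comparison counted a gene if either of its libraries exceeded 1 FPKM, and it was called higher or lower when the libraries differed by more than 2-fold. With 1 library per condition no difference can be set against the spread between replicates, so no test is given and each call is a description of 2 libraries. In such bulk samples fewer cells of a type and less RNA per cell cannot be told apart. The share of all loci called under the same rule is given beside the counts of the 9 genes.

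Sonic hedgehog is a secreted protein made by the notochord and the floor plate, and in the ventral neural tube its graded activity sets where motor neuron progenitors form. Without ligand, PTCH1 holds SMO inactive. When the ligand binds PTCH1, with the help of the co-receptors BOC and GAS1, SMO becomes active at the primary cilium and the GLI proteins change from repressors, chiefly GLI3, to activators, chiefly GLI2. *Gli1*, *Ptch1* and *Hhip* are themselves transcribed in response to the signal and are used as readouts of it, with PTCH1 and HHIP feeding back to damp it.

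The ligand was scarce in all libraries. *Shh* measured 0.0155 FPKM in WT-labelled ES cells, then 1.22 FPKM in EBs at day 2, 0.195 FPKM at day 4 and 0.337 FPKM at day 6. In the KO-labelled series it measured 0.00988 FPKM in ES cells, then 0.0793, 0.0744 and 0.121 FPKM at days 2, 4 and 6. It was at 0.746 and 0.744 FPKM in spinal column labelled WT and KO and at 1.14 FPKM in spinal cord. Only the WT-labelled EBs at day 2 and the spinal cord were above 1 FPKM. At day 2 the KO-labelled library was 15.4-fold lower (log2 ratio -3.94), although with 1 FPKM added to both values the log2 ratio was -1.04. At day 2, 2 of 3 counted floor plate markers were lower with the KO label, *Foxa2*, a transcription factor of floor plate and endoderm, at 0.125 against 1.79 FPKM and *Ntn1*, a guidance molecule, at 4.02 against 8.24 FPKM. Of 4 counted genes that the signal induces in the ventral neural tube, *Foxa2* was lower and *Nkx2-9* higher (1.39 against 0.692 FPKM). Of 4 epithelial markers 2 were higher, and the 1 counted endoderm marker was within 2-fold. The part of these cells in the difference in *Shh* was not tested.

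*Ptch1*, the receptor, had the highest level of the 9 genes, in WT-labelled EBs at day 4. It was at 9.58 FPKM in ES cells, 9.37 FPKM at day 2, 92.6 FPKM at day 4 and 11.2 FPKM at day 6. In the KO-labelled cultures it was at 9.53, 7.66, 26.5 and 4.41 FPKM at the same stages. Both series therefore peaked at day 4, and the KO-labelled peak was 3.49-fold lower. In tissue *Ptch1* was at 6.44 FPKM in WT-labelled and 4.23 FPKM in KO-labelled spinal column, and at 12.5 FPKM in spinal cord.

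*Smo* encodes the membrane protein that SAG binds. Its level was 11.3 FPKM in ES cells, 11.3 FPKM at day 2, 58.3 FPKM at day 4 and 26.6 FPKM at day 6 in the WT-labelled cultures, and 11.3, 10.9, 30.9 and 12.6 FPKM in the KO-labelled ones. It was at 19.4 and 21.6 FPKM in WT-labelled and KO-labelled spinal column and at 14.4 FPKM in the cord. The ratio of *Ptch1* to *Smo* within a library was 1.59 in WT-labelled EBs at day 4 and 0.857 in the KO-labelled EBs, and it was under 1 in each of the other 9 libraries.

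*Gas1*, a membrane-anchored co-receptor, was the most abundant of the 9 genes in spinal column, at 73.1 FPKM in the WT-labelled and 76.3 FPKM in the KO-labelled library. In WT-labelled cultures it was at 2.85, 4.39, 25.4 and 20.2 FPKM in ES cells and at days 2, 4 and 6, and in KO-labelled cultures at 3.31, 4.81, 17.3 and 8.74 FPKM. Spinal cord held 9.08 FPKM. The KO-labelled EBs were therefore within 2-fold of the WT-labelled ones at day 4 and 2.31-fold lower at day 6.

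*Boc*, the immunoglobulin-domain co-receptor, stayed at or under 4.44 FPKM in culture and was at 13.2 FPKM in WT-labelled spinal column, 9.69 FPKM in the KO-labelled one and 3.72 FPKM in spinal cord. Its values in ES cells and at days 2, 4 and 6 were 1.41, 0.839, 4.44 and 2.77 FPKM with the WT label and 1.52, 0.990, 2.64 and 3.13 FPKM with the KO label. *Hhip*, which encodes a decoy that binds the ligand, was at 0.108, 0.243, 3.16 and 1.23 FPKM in the WT-labelled cultures and at 0.122, 0.526, 0.956 and 1.38 FPKM in the KO-labelled ones. The day 4 crest of *Hhip* seen with the WT label was absent with the KO label, where each later stage was higher. In tissue *Hhip* was at 1.52 FPKM in WT-labelled and 0.963 FPKM in KO-labelled spinal column and at 1.60 FPKM in spinal cord.

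Of the 3 GLI genes, *Gli1* differed most between the labels at day 4. *Gli1*, an activator and a target of the pathway, was at 5.94, 4.67, 36.4 and 6.98 FPKM in WT-labelled ES cells and EBs at days 2, 4 and 6. In the KO-labelled series it was at 7.25, 7.64, 6.94 and 3.34 FPKM, so the KO-labelled level was higher than the WT-labelled one in ES cells and at day 2 and 5.25-fold lower at day 4. Spinal column held 4.22 and 4.62 FPKM of *Gli1* with the WT and KO labels, and spinal cord 3.01 FPKM.

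*Gli2*, the main activator early in the response, was at 7.08, 1.69, 6.31 and 2.07 FPKM in the WT-labelled cultures and at 6.03, 0.580, 2.50 and 2.07 FPKM in the KO-labelled ones. Both series had a trough at day 2, which was deeper with the KO label. *Gli3*, the main repressor, was at 3.72, 2.52, 12.5 and 2.16 FPKM with the WT label and at 3.38, 3.36, 10.97 and 2.63 FPKM with the KO label. The day 4 levels of *Gli3* differed by 1.14-fold between labels while those of *Gli1* differed by 5.25-fold. The ratio of *Gli1* to *Gli3* within a library was 2.90 in WT-labelled and 0.632 in KO-labelled EBs at day 4, and 3.23 and 1.27 at day 6. The ratio was higher with the KO label in ES cells, at 2.15 against 1.60, at day 2, at 2.28 against 1.85, and in spinal column, at 3.35 against 1.36.

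**Figure D1:**
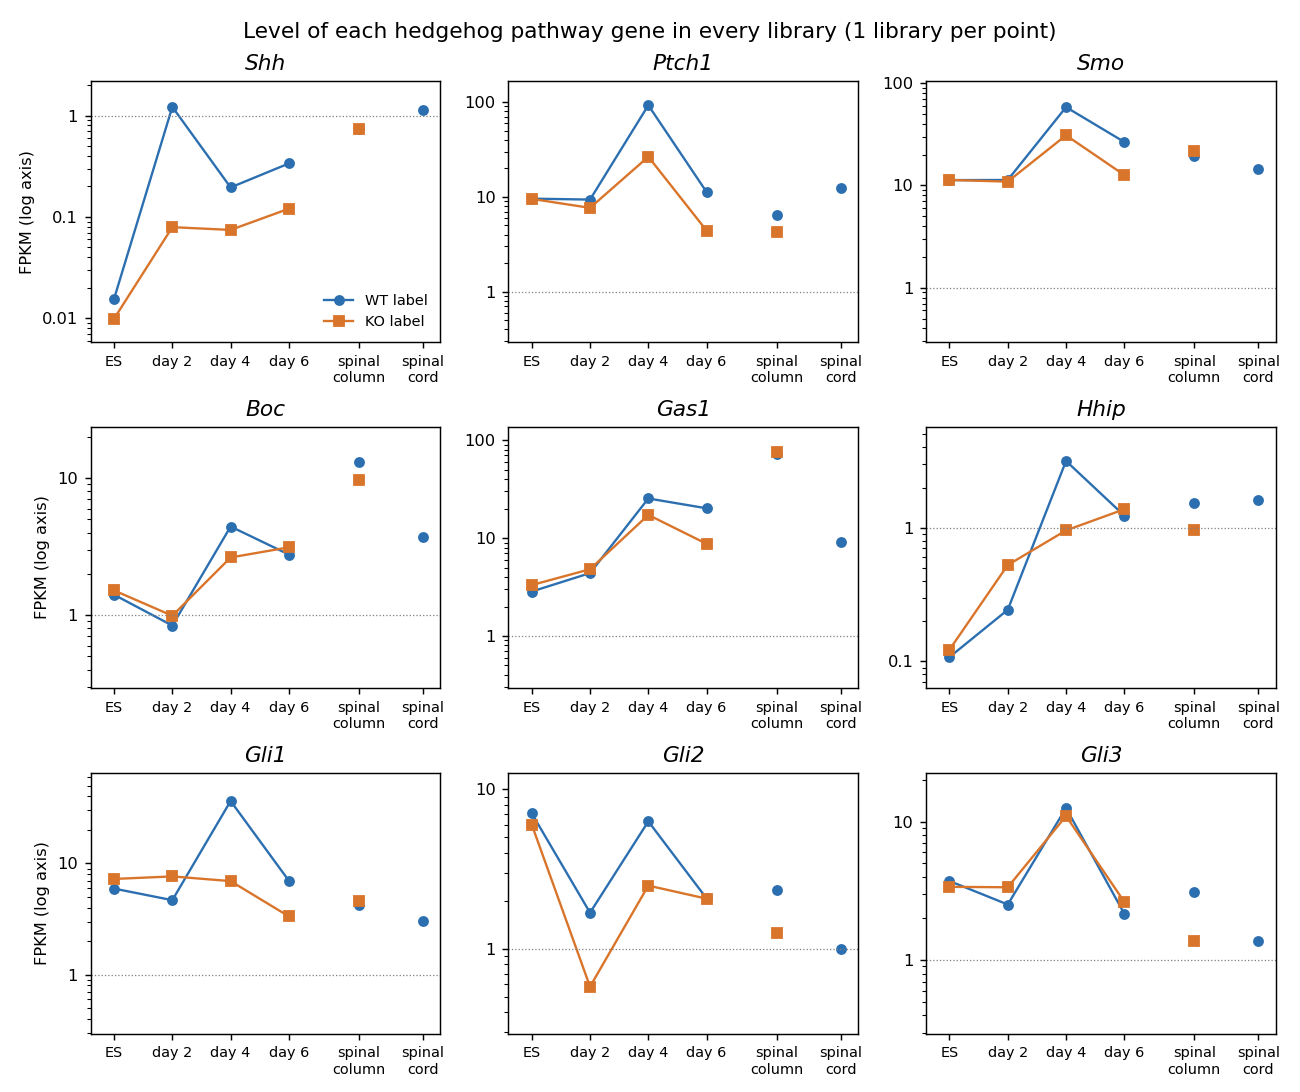
FPKM on a log axis of each of the 9 genes in ES cells, EBs at days 2, 4 and 6, spinal column and spinal cord, with circles for WT-labelled and squares for KO-labelled libraries, 1 library per point, and a dotted line at 1 FPKM. *Gli1* climbs to 36.4 FPKM at day 4 in the WT-labelled series only, whereas *Gli3* reaches 12.5 and 10.97 FPKM in the 2 series.

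The first question is how the pathway genes ran through differentiation in the WT-labelled cultures. These steps set libraries from separately normalized tables side by side. The WT-labelled ES cell library, listed in 2 of the tables, differed between them by a near-constant factor of 1.09 over 11841 loci, which is small beside a 2-fold call. From ES cells to day 2, 2 of 8 counted genes were called, with *Shh* higher (log2 ratio 6.30) and *Gli2* lower (log2 ratio -2.07), where 13.2% of all loci were called. From day 2 to day 4 the receptor and GLI genes were all higher. The 8 higher genes, of 9 counted, stand against 15.7% of all loci called higher, and *Shh* alone was lower, which is near the 13.8% of loci that were. With 1 FPKM added to both values the log2 ratio of *Shh* over this step was -0.89, within 2-fold. The log2 ratios of the 8 ran from 1.90 for *Gli2* to 3.70 for *Hhip*, with 3.30 for *Ptch1* and 2.96 for *Gli1*, and the median over the 9 genes was 2.40, against 0.09 over all loci. From day 4 to day 6, 6 of 8 counted genes were lower, where 9.95% of all loci were. *Ptch1* had a log2 ratio of -3.04, *Gli3* of -2.54, *Gli1* of -2.38, *Gli2* of -1.61, *Hhip* of -1.36 and *Smo* of -1.13, whereas *Gas1* (-0.33) and *Boc* (-0.68) were within 2-fold. With 1 FPKM added *Hhip* was within 2-fold as well, at -0.90.

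Other cell types moved over the same steps. From ES cells to day 2, 5 of 7 fibroblast, 3 of 6 ES cell and 2 of 4 epithelial markers were lower. Of 3 counted floor plate markers 2 were higher and *Ntn1* was lower, from 26.4 to 8.24 FPKM. The floor plate list went from a sum of 26.8 to 11.5 FPKM. The fibroblast markers, which feeder cells express, went from a sum of 373 to 66.8 FPKM. The summed FPKM of 6 ES cell markers was 2875 at day 2, 108 at day 4 and 1368 at day 6 in the WT-labelled EBs, and that of 7 fibroblast markers was 66.8, 5.20 and 51.4. All 6 ES cell and all 7 fibroblast markers were lower at day 4 than at day 2 and higher at day 6 than at day 4. Of 5 neural progenitor markers 4 were higher at day 4 than at day 2 and *Sox2* was lower, at 83.7 against 172 FPKM. At day 6, 3 of the 5 were lower than at day 4 and 1 was higher. The 5 markers summed to 181, 222 and 137 FPKM at days 2, 4 and 6. From day 2 to day 4, 2 of 3 counted floor plate and 2 of 3 endoderm markers were higher and 2 of 4 epithelial markers lower. Of 5 counted neuronal markers 3 were lower and 1 higher over that step, and the 1 counted motor neuron and the 1 counted muscle marker were higher. From day 4 to day 6 all 6 neuronal, all 6 motor neuron and all 4 epithelial markers were higher. The WT-labelled library of day 4 therefore held both the highest *Ptch1*, *Smo*, *Hhip*, *Gli1* and *Gli3* of the 11 libraries and the lowest sums of the ES cell and fibroblast markers among the cultures. Their part in the crest of the pathway genes was not tested.

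In the KO-labelled cultures the same 3 steps counted 7, 7 and 8 of the genes, against 8, 9 and 8 with the WT label. From ES cells to day 2 only *Gli2* was lower (log2 ratio -3.38) of 7 counted genes, against 8.37% of all loci, and 1 of 7 is near that share. *Gli2* was under 1 FPKM at day 2 and was not counted when 1 FPKM was required in both libraries. Over this step 5 of 7 fibroblast, 3 of 6 ES cell and 2 of 4 counted cartilage markers were lower too, the fibroblast markers going from a sum of 406 to 70.0 FPKM. From day 2 to day 4, 6 of 7 counted genes were higher, against 15.4% of loci, with *Gli2* at a log2 ratio of 2.10, *Gas1* at 1.85, *Ptch1* at 1.79, *Gli3* at 1.71, *Smo* at 1.50 and *Boc* at 1.41, the last within 2-fold (0.87) with 1 FPKM added. *Gli1*, at -0.14, was the counted gene that was not. From day 4 to day 6, 4 of 8 were lower, against 11.1% of loci, namely *Ptch1* (-2.59), *Gli3* (-2.06), *Smo* (-1.29) and *Gli1* (-1.05), the last within 2-fold (-0.87) with 1 FPKM added. Cell type markers moved over the later steps too. From day 2 to day 4, 5 of 6 ES cell, 4 of 7 fibroblast and 3 of 4 counted neuronal markers were lower, and 4 of 5 neural progenitor, 3 of 3 counted endoderm and 2 of 3 floor plate markers were higher. The remaining progenitor marker, *Sox2*, was lower, at 85.7 against 173 FPKM, and the progenitor sum went from 184 to 121 FPKM. The 1 counted motor neuron marker and 2 of 2 counted muscle markers were higher, and of 3 counted glial markers 2 were higher and 1 lower. From day 4 to day 6 all 6 ES cell, all 7 fibroblast and all 4 epithelial markers were higher, and 3 of 5 neural progenitor and 2 of 3 counted floor plate markers were lower. Of 3 counted neuronal markers 2 were higher, *Stmn2* from 11.8 to 63.1 FPKM and *Tubb3* from 18.0 to 41.3 FPKM. The 1 counted motor neuron marker, *Mnx1*, was lower, from 5.01 to 1.62 FPKM. Their part in the steps was not tested. Whether the steps differ between labels could not be tested with these libraries.

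The second question is how the libraries labelled KO differed from those labelled WT at each stage. In ES cells none of the 7 counted genes was called, where 1.13% of all loci were, and their log2 ratios, KO-labelled over WT-labelled, lay between -0.23 for *Gli2* and 0.29 for *Gli1*. At day 2, 2 of 7 counted genes were lower, *Shh* (-3.94) and *Gli2* (-1.54), where 1.4% of all loci were lower. In both genes 1 of the libraries was under 1 FPKM, and neither was counted when 1 FPKM was required in both libraries. *Gli2* was within 2-fold (-0.77) with 1 FPKM added.

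At day 4 the genes transcribed in response to the signal had the lowest ratios. The log2 ratio was -2.39 for *Gli1*, -1.80 for *Ptch1* and -1.72 for *Hhip*, and it was -1.34 for *Gli2*. These 4 of 8 counted genes were called lower, where 4.43% of all loci were lower, and none was called higher, where 12.1% of loci were. *Hhip* was under 1 FPKM in the KO-labelled library, and with 1 FPKM required in both libraries 3 of 7 genes were lower. With 1 FPKM added the log2 ratio was -1.09 for *Hhip* and -1.06 for *Gli2*. *Smo* (-0.91), *Boc* (-0.75), *Gas1* (-0.56) and *Gli3* (-0.19) were within 2-fold, and all 8 were on the lower side. The median of the 8 was -1.13, against -0.03 over the 12543 loci counted.

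At day 6 *Ptch1* (-1.35), *Gas1* (-1.21), *Smo* (-1.07) and *Gli1* (-1.06) were lower, 4 of 8 counted genes where 9.93% of loci were lower, and no gene was higher, where 10.5% of loci were. *Hhip* (0.16), *Boc* (0.18) and *Gli3* (0.29) were slightly on the higher side, and *Gli2* was at 2.07 FPKM in both libraries. *Smo* and *Gli1* were 2.10-fold and 2.09-fold lower and so lay just past the 2-fold line, and with 1 FPKM added *Gli1* was within it (-0.88).

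In newborn spinal column 1 of 8 counted genes was called, *Gli3*, at 3.09 FPKM with the WT label and 1.38 FPKM with the KO label (log2 ratio -1.17), where 8.51% of all loci were lower, a share that 1 of 8 is near. With 1 FPKM added to both values its log2 ratio was -0.78 and no gene was called. *Gli2* was at 2.35 and 1.25 FPKM (-0.91) and so lay within 2-fold. The targets *Gli1* (0.13) and *Ptch1* (-0.61) were within 2-fold as well.

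**Figure D2:**
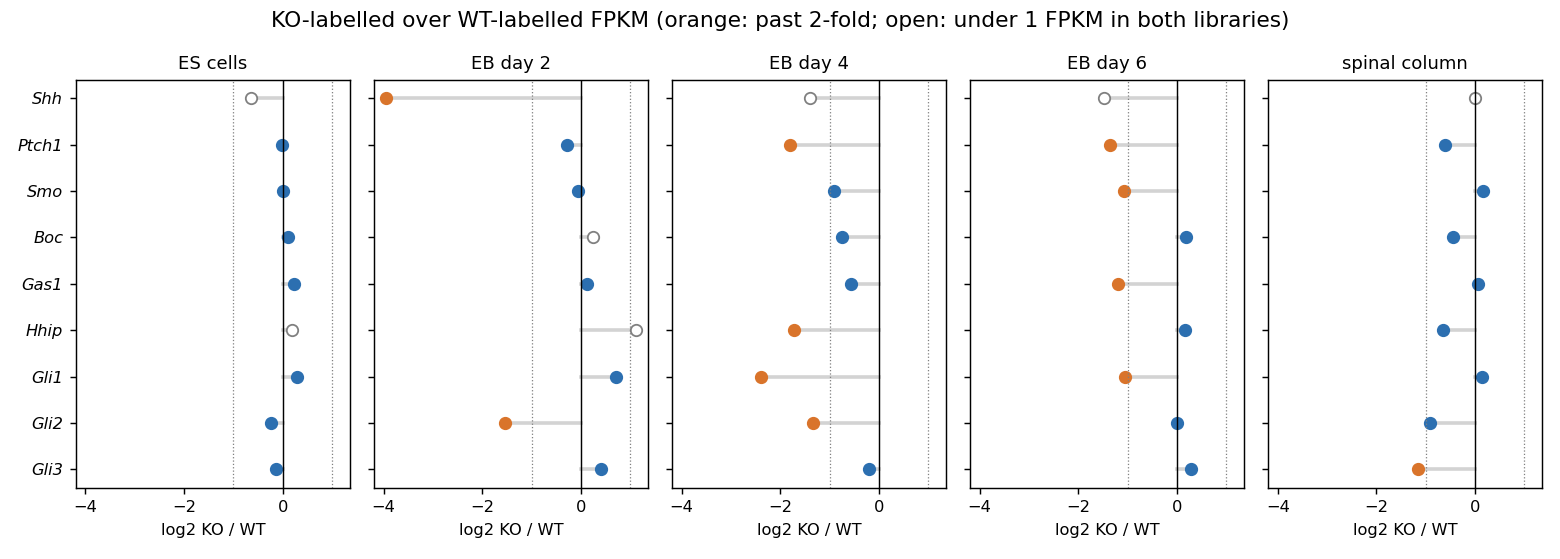
Log2 ratio of KO-labelled over WT-labelled FPKM for each of the 9 genes in ES cells, EBs at days 2, 4 and 6 and spinal column, from 1 library per condition, with dotted lines at 2-fold, orange points past them and open points for genes under 1 FPKM in both libraries. At day 4 all points lie below 0, from -2.39 for *Gli1* to -0.19 for *Gli3*, and in ES cells the filled points lie close to 0.

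A further 25 genes of the pathway were grouped by role. At day 4, 3 of the 23 counted were called, where 16.5% of all loci were called in either direction. Of 12 genes of signal transduction inside the cell, such as the inhibitor *Sufu*, the kinesin *Kif7* and the protein kinase A subunits, 1 was lower, *Evc*, a protein of the cilium base, at 4.39 FPKM with the WT label and 2.12 FPKM with the KO label. *Sufu* was at 16.8 and 11.3 FPKM. None of 5 genes of cilium transport was called. Of 3 genes of ligand reception, *Lrp2*, an endocytic receptor, was higher at 13.4 FPKM with the KO label against 3.22 FPKM with the WT label. Among 3 counted genes of ligand processing and release, *Scube2*, which helps free the ligand from cells, was lower at 0.636 against 2.07 FPKM. At day 6, 2 of 20 counted were called, where 20.5% of all loci were, so the share called was below that of all loci. Of 12 transduction genes 1 was lower, *Gpr161*, a ciliary receptor that restrains the pathway, at 0.605 against 1.27 FPKM, as was 1 of 2 counted reception genes, *Gpc3*, at 41.0 against 106 FPKM. The day 4 medians of the log2 ratio were -0.28 for transduction and 0.10 for cilium transport, against -1.13 for the core genes and -0.03 over all loci.

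Genes patterned by the signal in the ventral neural tube were counted in the same way. Of 5 counted genes that the signal induces, 3 were lower at day 4 in the KO-labelled library, where 4.43% of all loci were. *Olig2*, the motor neuron progenitor factor, was at 4.67 against 59.9 FPKM, *Nkx6-1* at 2.67 against 30.2 FPKM and *Nkx6-2* at 8.67 against 20.8 FPKM. *Foxa2* (5.08 against 10.1 FPKM) and *Nkx2-9* (9.80 against 19.6 FPKM) lay just within 2-fold. Of 4 counted genes that the signal represses, 3 were lower. *Pax6* was at 29.5 against 109 FPKM, *Irx3* at 23.7 against 70.0 FPKM and *Dbx2* at 0.421 against 1.93 FPKM, whereas *Dbx1*, at 12.9 against 8.82 FPKM, was within 2-fold. At day 6, 3 of 6 induced genes were lower (*Nkx6-1*, *Nkx2-2* and *Olig2*) and *Nkx2-9* was higher, at 7.46 against 2.36 FPKM, and 3 of 3 counted repressed genes were lower. Over all loci 9.93% were lower and 10.5% higher at day 6.

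**Figure D3:**
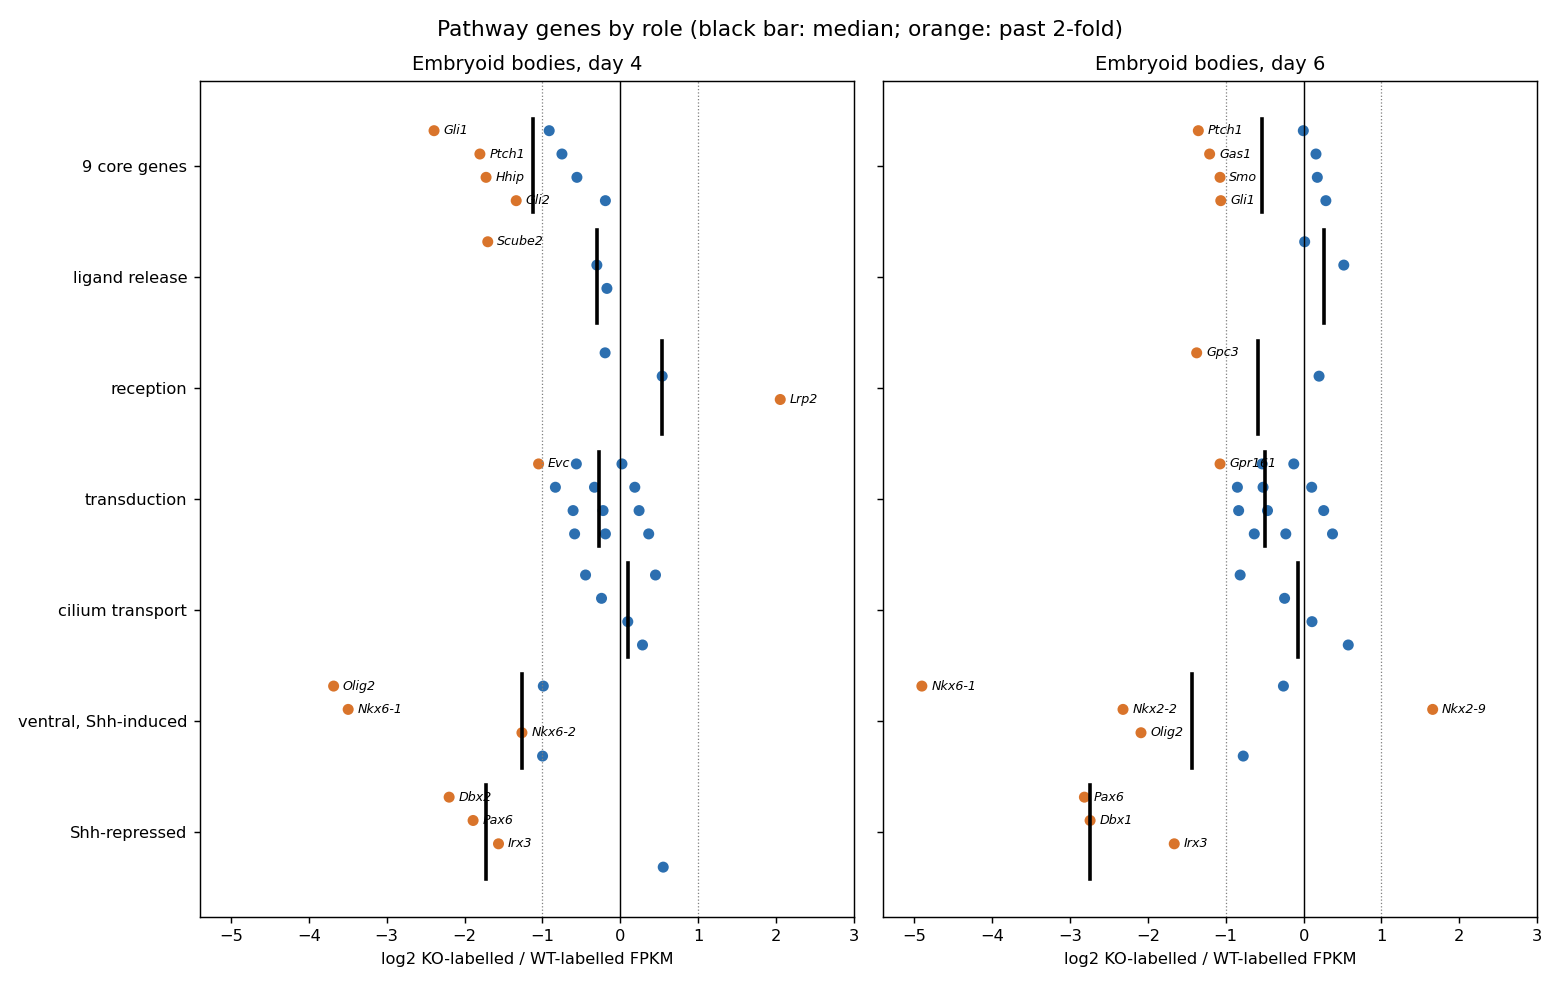
Log2 ratio of KO-labelled over WT-labelled FPKM at day 4 (left) and day 6 (right) for the 9 core genes and for the other pathway and ventral neural tube genes by role, counted genes only, 1 point per gene, with black bars at the medians and orange points, named, past 2-fold. At day 4 the core genes have a median of -1.13 while the transduction genes have one of -0.28 and the cilium genes one of 0.10.

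Markers of other cell types differed between the same libraries. At day 4 all 6 ES cell markers, summing to 799 FPKM with the KO label and 108 FPKM with the WT label, were higher in the KO-labelled library, as were 7 of 7 fibroblast markers (34.6 against 5.20 FPKM) and 4 of 4 epithelial markers (255 against 44.3 FPKM). Of 5 neural progenitor markers 3 were lower (summed FPKM 121 against 222). Of 4 counted neuronal markers 2 were lower, and the 1 counted motor neuron marker was higher, with all 6 of its list summing to 7.01 FPKM with the KO label and 3.99 FPKM with the WT label. At day 6, 6 of 6 neuronal markers (106 against 796 FPKM) and 6 of 6 motor neuron markers (3.34 against 75.4 FPKM) were lower, and 5 of 6 ES cell markers (3966 against 1368 FPKM) and 4 of 4 epithelial markers (1073 against 129 FPKM) were higher. Of the neural progenitor markers 4 of 5 were lower at day 6 (106 against 137 FPKM), and 4 of 7 fibroblast markers were higher (133 against 51.4 FPKM). At that day 1 of 3 counted floor plate, 1 of 2 cartilage and 1 of 2 glial markers were lower, and no counted endoderm or muscle marker was called. Of the other lists at day 4, 1 of 3 counted floor plate and 1 of 3 glial markers were lower, 1 of 2 muscle, 1 of 2 cartilage and 1 of 3 endoderm markers were higher, and the blood marker found was under 1 FPKM. In spinal column 3 of 6 neuronal and 1 of 3 counted motor neuron markers were lower, and 3 of 4 epithelial markers, 1 of 3 ES cell, 1 of 3 endoderm and 1 of 7 fibroblast markers were higher. In ES cells no counted marker of any list was past 2-fold. The part of these cell types in the pathway genes' ratios was not tested.

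In newborn tissue the pathway genes were spread differently from the cultures. Against ES cells, in the table that holds both libraries, spinal cord was higher in *Shh* (log2 ratio 6.08), *Hhip* (3.77), *Gas1* (1.55) and *Boc* (1.27) and lower in *Gli2* (-2.95), *Gli3* (-1.55) and *Gli1* (-1.11). These 4 higher and 3 lower of 9 counted genes stand against 30.5% and 35.7% of all loci, so being called here says little of a gene. With 1 FPKM added the log2 ratio of *Shh* was 1.08 and that of *Hhip* 1.22, since both were near 0 FPKM in ES cells, and *Boc* (0.89) and *Gli1* (-0.90) were within 2-fold. The median of all loci was itself at -0.26, and relative to it *Gli1*, at -0.84, was within 2-fold. Spinal column labelled WT exceeded spinal cord in *Gas1* (log2 ratio 3.01), *Boc* (1.83), *Gli2* (1.23) and *Gli3* (1.16), 4 of 9 counted genes where 17.3% of loci were higher, across separately normalized tables. With 1 FPKM added *Gli2* (0.74) and *Gli3* (0.78) were within 2-fold, which left 2 genes called. Markers of the tissues were present. The 7 fibroblast markers summed to 3600 FPKM in WT-labelled spinal column and 388 FPKM in spinal cord, the 6 cartilage markers to 195 and 4.01 FPKM, and the 6 neuronal markers to 697 and 1505 FPKM. *Thy1* alone of the fibroblast markers was lower in spinal column, at 60.7 against 119 FPKM. The 6 glial markers summed to 151 and 387 FPKM, and the muscle genes with an estimate in both, *Myh3* and *Tnnt3*, were at 420.5 and 2927 FPKM in spinal column and at 0.612 and 23.6 FPKM in the cord. How much of each gene's level came from which of these tissues was not tested.

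Of 36 pairs among the 9 genes, 3 had a Pearson r above 0.8 of log2(FPKM + 1) over the 11 libraries, *Boc* with *Gas1* (0.93), *Ptch1* with *Gli1* (0.84) and *Ptch1* with *Gli3* (0.82). Over the 8 culture libraries alone 9 of the 36 did, among them *Smo* with *Gas1* (0.92), *Ptch1* with *Gli1* (0.91) and *Gas1* with *Hhip* (0.90). *Boc* and *Gas1* had their highest levels in spinal column, and *Ptch1*, *Gli1* and *Gli3* theirs in the WT-labelled EBs of day 4. Among 15582 genes the one most like *Ptch1* was *Mttp* (0.97), the one most like *Smo* was *Zmym5* (0.97) and the one most like *Gli1* was *Bbs12* (0.92). For *Boc* it was *Tor1aip1* (0.98), for *Gas1* *Cfl2* (0.98), for *Hhip* *Ppt1* (0.96), for *Gli2* *Phldb2* (0.94), for *Gli3* *Fam199x* (0.93) and for *Shh* *Slc39a8* (0.91). Over the 8 culture libraries alone another gene was most alike for 8 of the 9, such as *Heatr6* for *Ptch1* and *Rfx4* for *Smo*, and *Hhip* alone kept its own, so these names depend on the libraries taken. The points share clones, tissues and tables, and these values are a description of likeness over 11 libraries.

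The last question is where TAF9B and POL2 were found around these genes. Distances run from the transcription start sites (TSS) of protein-coding transcripts of GENCODE M1 on NCBIM37, the same assembly as mm9, and a peak counts as at a TSS when its midpoint is within 500 bp. Within 50 kb of a TSS a TAF9B peak was found for 5 of the 9 genes, *Ptch1*, *Smo*, *Gas1*, *Gli1* and *Gli2*, where 55.6% of 17839 genes had one. At a TSS 2 of 9 had one, *Gas1* and *Gli2*, against 20.8% of genes. A POL2 peak lay within 50 kb for *Ptch1*, *Smo*, *Boc*, *Gas1* and *Gli1*, 5 of 9 against 57.5% of genes, and at a TSS for *Ptch1*, *Smo*, *Boc* and *Gas1*, 4 of 9 against 34.4%. All 4 counts are near the share of all genes. No peak of either list lay within 50 kb of *Shh* or *Hhip*.

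*Gli2* had a TAF9B peak and no POL2 peak at its TSS. The peak, chr1:120950160-120950420, has its midpoint 94 bp upstream of the TSS and a score of 121, above 72.7% of the TAF9B list, and further TAF9B peaks lay 30.2 kb upstream and, inside the gene, 143 kb downstream of the upstream-most TSS. *Gas1* had TAF9B peaks centred 380 bp and 1273 bp upstream, at chr13:60278973-60279238 (score 97.1) and chr13:60279853-60280145 (score 133), and the nearer one overlapped a POL2 peak with a score of 190. In *Ptch1* both TAF9B peaks lay inside the gene, chr13:63629752-63629960 (score 55.7) and chr13:63669257-63669413 (score 52.0), low in the list, and the second overlapped a POL2 peak. The peaks assigned to *Smo* and *Gli1* lay closer to other genes: those of *Smo* were 27.6 and 41.6 kb upstream, nearest to *Tspan33*, and that of *Gli1* was 29.6 kb downstream of its TSS, 58 bp from the TSS of *Mars*. The TAF9B peak nearest to a TSS of *Gli2*, *Gas1* and *Ptch1* is shown for each on the strand of the gene, in lower case because none holds the GLI letters searched below. The *Gli2* run leaves out 37 bases of the peak that lie in the annotated 5′ untranslated region, and none of the stretches overlaps an exon.

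Gli2 start, chr1:120950197-120950420, minus strand: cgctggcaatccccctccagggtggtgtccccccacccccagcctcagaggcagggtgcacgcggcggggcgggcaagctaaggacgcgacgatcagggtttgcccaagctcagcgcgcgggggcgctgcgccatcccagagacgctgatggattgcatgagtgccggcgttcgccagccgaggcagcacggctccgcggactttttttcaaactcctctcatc

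Gas1 start, chr13:60278973-60279238, minus strand: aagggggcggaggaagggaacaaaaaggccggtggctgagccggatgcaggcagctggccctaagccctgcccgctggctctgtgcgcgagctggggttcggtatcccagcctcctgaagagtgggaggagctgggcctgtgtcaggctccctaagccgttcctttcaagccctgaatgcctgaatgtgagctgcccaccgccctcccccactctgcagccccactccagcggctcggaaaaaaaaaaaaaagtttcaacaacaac

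Ptch1 intron, chr13:63669257-63669413, minus strand: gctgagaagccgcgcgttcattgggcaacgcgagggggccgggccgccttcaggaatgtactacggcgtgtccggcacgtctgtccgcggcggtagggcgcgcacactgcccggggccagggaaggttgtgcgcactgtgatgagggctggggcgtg

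The stretches are rich in G and C, with 67.8% over the *Gli2* peak, 60.9% over the *Gas1* peak and 70.1% over the *Ptch1* peak.

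POL2 marked *Ptch1* along its length. Of 17839 genes *Ptch1* held the most POL2 peaks with a midpoint inside the gene, 24 over 64.2 kb, and the next was *Slit3* with 23 over 587 kb, whereas 23.5% of genes held any. The peaks covered 24.4 kb, or 38.0% of *Ptch1*, which 2 genes exceeded in covered length, and the highest score was 596. No other of the 9 genes had more than 1 POL2 peak inside it, *Smo* and *Boc* having 1 each. A count of peaks also depends on how the peak caller joins neighbouring signal. The ChIP was made at a later time of differentiation than any RNA library, and in another cell line. At day 6, the nearest RNA time point, *Ptch1* was the third most abundant of the 9 genes in the WT-labelled EBs, at 11.2 FPKM behind *Smo* (26.6 FPKM) and *Gas1* (20.2 FPKM).

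**Figure D4:**
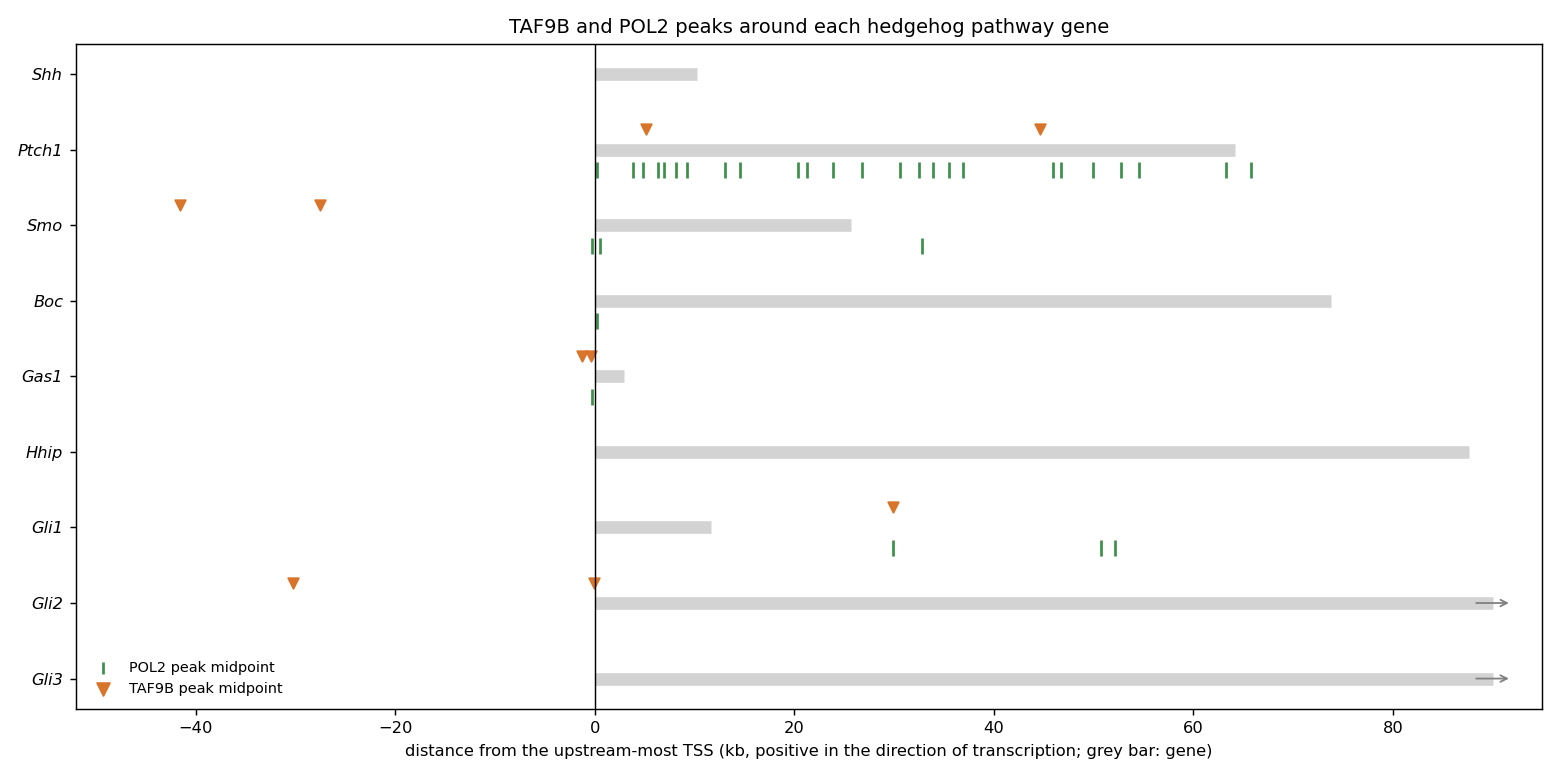
Midpoints of TAF9B (triangles) and POL2 (ticks) peaks around each of the 9 genes, by distance in kb from the upstream-most TSS in the direction of transcription, with grey bars for the genes and arrows where a gene runs past the axis, which ends short of distal peaks of *Gli2* and *Gli3*. *Ptch1* carries 24 POL2 peaks inside the gene, and *Gli2* has a TAF9B peak at its start and no POL2 peak.

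The GLI proteins bind DNA at sites close to the letters GACCACCCA, and these 9 letters were searched on both strands without other motifs. Of 33 POL2 peaks of the 9 genes, 25 of them at *Ptch1*, 2 held a match, both at *Ptch1* and 1 match each, where 0.860% of 8609 POL2 peaks held one. These peaks are 1630 and 924 bp wide, against a median of 686 bp in the POL2 list, and a wider peak has more letters in which to hold a match. They are printed with 60 bases on either side because they are the matches the search found, with the 9 letters in capitals and on the strand of the gene. The first is centred 303 bp upstream of the upstream-most *Ptch1* TSS, in the POL2 peak chr13:63673374-63675003 that spans it, and the second 3877 bp downstream in the peak chr13:63670170-63671093. Neither window overlaps an exon.

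Ptch1 upstream, chr13:63674713-63674841, minus strand: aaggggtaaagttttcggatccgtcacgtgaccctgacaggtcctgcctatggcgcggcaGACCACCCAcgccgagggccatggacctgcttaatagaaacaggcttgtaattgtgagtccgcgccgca

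Ptch1 downstream, chr13:63670533-63670661, minus strand: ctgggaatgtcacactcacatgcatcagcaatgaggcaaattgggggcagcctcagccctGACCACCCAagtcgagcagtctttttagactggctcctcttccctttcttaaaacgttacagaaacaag

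No TAF9B peak of the 9 genes held the letters, where 0.135% of 10402 TAF9B peaks did. In the RefSeq promoter windows of 300 bases (build GRCm38.p6), which list 6 of the 9 genes, none of the 6 held them, where 0.253% of 32851 windows did. A match is a run of letters and not a measured GLI site, and no GLI protein was assayed here.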

How the data were processed

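The libraries were poly-A RNA-seq and ChIP-seq. The authors mapped RNA-seq reads against RefSeq genes with TopHat and deposited Cuffdiff FPKM values in 6 tables, which were used without further normalization. Peaks were called with MACS after mapping to mm9 with Bowtie, and the deposited score of a peak is used as given. Tool versions are not given in the sources used here. The tables' own fold changes and p-values were not used. Read counts are not part of the tables, so depth is unknown.

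RefSeq accessions gave symbols for 22832 of 23152 loci. Loci with a failed estimate were left out (13 to 71 per table). Log2 ratios had no pseudocount. A call needed either library over 1 FPKM and a ratio past 2-fold. Peak distances were planned from RefSeq starts, but the loci are merged bundles, so GENCODE M1 starts on NCBIM37 were used. The genes named are the 9 members, listed pathway, ventral and marker genes, *Taf9b*, and those most alike by Pearson r. Of these, 1 of 3 blood markers was matched, and all lists of other cell types were counted. The values of 1 pathway gene are not reported here. Members and lists were chosen with earlier results of these data known. The calling was tested on simulated data. Alternatives were another pseudocount, centring, filters, ES cell table, peak score and distance. The IgG library was not used. Software was Python 3.11.15, pandas 2.3.3, numpy 2.4.6 and matplotlib 3.10.9.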

Additional observations from a re-analysis of the deposited data

How the results depend on the processing

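No paired analysis was possible because each condition has 1 library, and no replicate could be left out. Of 66 alternative values of the counts, 11 moved a count of genes or pairs past 1.5-fold or to 0. With 1 FPKM added, the genes past 2-fold were 1 at day 2 between labels and 0 in spinal column. With 1 FPKM required in both libraries they were 0 at day 2 between labels and 1 between ES cells and day 2 with the WT label. The alternatives of the KO-labelled steps and of spinal column against spinal cord were chosen after seeing the data. Between ES cells and day 2 with the KO label the genes past 2-fold were 3 without a filter and 0 with 1 FPKM required in both libraries, and between spinal column and cord they were 2 with 1 FPKM added. Over the 8 culture libraries, 9 pairs of genes passed an r of 0.8. With peaks given only to the nearest TSS, 3 of the 9 genes had a TAF9B peak within 50 kb, where 31.8% of all genes had one, and with scores above the list's median, 2 had a POL2 peak within 50 kb and 2 at a TSS, where 40.2% and 19.5% of all genes did. The cause was not tested, except that the filters count fewer genes by construction. No alternative reversed a direction that was called. At day 4 the calls between labels ran from 3 to 5 genes and at day 6 from 3 to 5. Low values such as those of *Shh* and *Hhip* rest on an unknown number of reads.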
